A study of Homo sapiens with 2 samples.

Results

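The 6 mitochondrially encoded mRNAs of respiratory complexes III, IV and V (MT-CYB, MT-CO1, MT-CO2, MT-CO3, MT-ATP6 and MT-ATP8) were examined for binding sites of Y-box binding protein 1 (YBX1). A site was assigned to an mRNA when its midpoint lay inside the gene on the gene's own strand in GENCODE release 44 (GRCh38, hg38). By this rule 15 of the 2054 sites of the deposited list fell in these mRNAs, and 5 of the 6 mRNAs held at least 1 site. Across the genome, 1366 of 20046 protein-coding genes (6.81%) held a site on their strand. The sites came from PAR-CLIP, in which living cells take up 4-thiouridine, proteins are crosslinked to RNA with UV light, and the crosslinked uridines are read as T-to-C changes in the sequenced RNA pieces. The cells were HEK293, a human embryonic kidney line, and the study's methods describe T-REx Flp-In cells that stably overexpressed FLAG/HA-tagged YBX1, precipitated through the FLAG tag, whereas the sample labels name an antibody against YBX1 itself. Every sample was a YBX1 precipitate, so no untreated or control precipitate stood beside them. The authors pooled the 2 replicates into 1 list, which holds positions and no read count or score, so sequencing depth at each site is unknown and all intervals given here cover counting error only.

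Mitochondrial DNA encodes 13 proteins, all of them core subunits of the respiratory chain and of ATP synthase, and its genes are read as long RNAs from which tRNAs are cut out to free the mRNAs. Complex III, which contains cytochrome b (MT-CYB), passes electrons to cytochrome c. Complex IV (cytochrome c oxidase, with the catalytic core MT-CO1, MT-CO2 and MT-CO3) hands them to oxygen, and complex V makes ATP with a proton channel that contains MT-ATP6 and MT-ATP8. These mRNAs have almost no untranslated sequence, and the reading frames of MT-ATP8 and MT-ATP6 overlap on 1 shared mRNA. YBX1 is a cold shock domain protein that binds DNA and RNA and is best known as a coating protein of cytoplasmic mRNAs.

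The sequences of the sites are shown because their composition and their ends carry most of what the list holds for these mRNAs. They were read from GRCh38 on the plus strand of the mitochondrial chromosome, run 5′ to 3′ in DNA letters, and have the tetramer CATC in capitals, the one found in the most of these sites among the 11 tetramers examined. Sites are numbered along each mRNA.
MT-CYB site 1, chrM:15277-15301: attctttacctttcacttCATCttg
MT-CYB site 2, chrM:15327-15346: cactccacctcctattcttg
MT-CYB site 3, chrM:15624-15650: ccctattactatcCATCctCATCctag
MT-CYB site 4, chrM:15660-15687: cCATCctccatatatccaaacaacaaag
MT-CYB site 5, chrM:15778-15797: ctacccttttacCATCattg
MT-CO1 site 1, chrM:6212-6239: actcttacctccctctctcctactcctg
MT-CO1 site 2, chrM:6481-6504: tcctacttctcctatctctcccag
MT-CO1 site 3, chrM:6932-6951: attCATCtttcttttcaccg
MT-CO1 site 4, chrM:7132-7161: ccaaaatccatttcactatcatattCATCg
MT-CO2 site 1, chrM:7860-7885: atccctcccttacCATCaaatcaatt
MT-CO2 site 2, chrM:8118-8141: gtctaaaccaaaccactttcaccg
MT-CO3 site 1, chrM:9308-9329: atttcacttccactccataacg
MT-CO3 site 2, chrM:9839-9859: ctcaactttcctcactatctg
MT-ATP6 site 1, chrM:8670-8697, a stretch of a site that covers 8669 to 8719: actaatcaaactaacctcaaaacaaatg
MT-ATP6 site 2, chrM:8922-8950: cacacctacaccccttatccccatactag

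Most of the lines above show one form repeated along these mRNAs, a short stretch rich in C and T that closes with a G. C and T made up 60% or more of 12 of the 15 sites. The lowest shares were 41.2% in MT-ATP6 site 1 and 53.6% in MT-CYB site 4. The whole mRNAs held 55.1% (MT-ATP8) to 59.4% (MT-CYB) C and T. RNase T1, which trimmed the RNA around the protein, cuts after G. Of the 15 sites, 14 ended in G (93.3%), 11 followed a G (73.3%) and 10 did both (66.7%). Of the 31 sites in complex I mRNAs, 26 ended in G (83.9%) and 30 followed one (96.8%). Inside the sites G was nearly absent, and 13 of 15 held none before their last base. MT-CO2 site 2 and MT-ATP6 site 1 also began with a G, and MT-ATP6 site 1 held a further G, which closes the stretch shown for it. The exception at the 3′ end was MT-CO2 site 1, which ended in T. The sites were 20 to 51 nt wide with a median of 25 nt, against a median of 27.0 nt in complex I mRNAs and 22.0 nt over the whole list. Each held between 5 and 13 T bases (median 8), the base at which a crosslink can be read.

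The only complex III mRNA of the mitochondrion, MT-CYB (chrM 14747 to 15887, 1141 nt), held 5 sites (95% Poisson interval 1.62 to 11.7), the most of any of the 6 mRNAs. They lay at nucleotides 531 to 555, 581 to 600, 878 to 904, 914 to 941 and 1032 to 1051 of the gene, all within the coding sequence. The first 530 nt therefore held none, and 4 of the 5 midpoints were past the middle of the gene. They formed a close pair 25 nt apart at codons 177 to 200, another pair 9 nt apart at codons 293 to 314, and a single site at codons 344 to 351. With sites less than 50 nt apart merged, MT-CYB held 3.

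The cytochrome c oxidase mRNAs held 8 sites over 3010 nt. MT-CO1 (chrM 5904 to 7445, 1542 nt), which encodes the subunit that carries the oxygen-reducing centre, held 4 sites (1.09 to 10.2) at codons 103 to 112, 193 to 201, 343 to 350 and 410 to 420. These were spread along the gene, with 180 to 427 nt between neighbours. MT-CO2 (chrM 7586 to 8269, 684 nt), the subunit that receives electrons from cytochrome c, held 2 sites (0.242 to 7.22) at codons 92 to 100 and 178 to 186. MT-CO3 (chrM 9207 to 9990, 784 nt) held 2 sites at codons 34 to 41 and 211 to 218, which were 509 nt apart, the widest gap among the 10 pairs of neighbouring sites. Both MT-CO3 sites were no wider than the list's median of 22.0 nt, so it had 0 sites when only wider ones were counted.

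For ATP synthase, MT-ATP6 (chrM 8527 to 9207, 681 nt) held 2 sites, at codons 48 to 65 and 132 to 142. The first was the widest of all 15 at 51 nt and stood apart in composition, with 52.9% A and 41.2% C and T together, the lowest pyrimidine share of the set. MT-ATP8 (chrM 8366 to 8572, 207 nt) held 0 sites, with a 95% Poisson interval of 0 to 17.8 sites per kb, so that a density like that of any other of these mRNAs was not detectable at its length. Neither MT-ATP6 site reached the stretch that the 2 reading frames share.

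**Figure D1:**
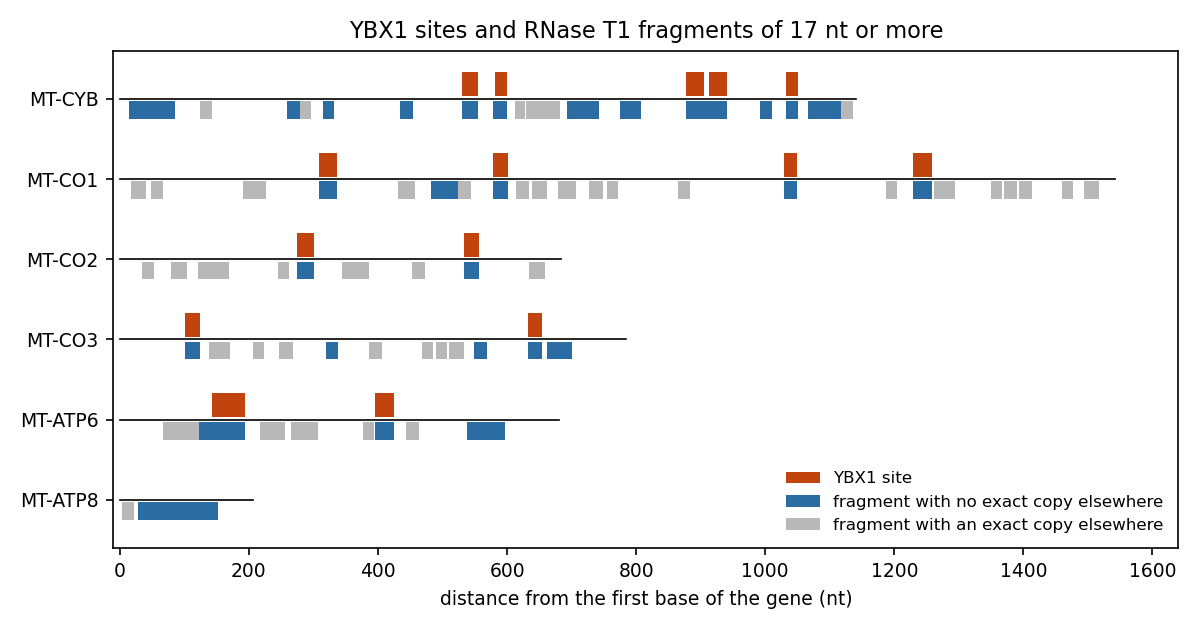
YBX1 sites (red, above each line) and RNase T1 fragments of 17 nt or more (below each line) along the 6 mRNAs, with the distance from the first base of the gene in nt on the horizontal axis. Fragments with no exact copy elsewhere in the genome are blue and those with one are grey; every red block stands over blue, and none of the 47 grey fragments holds a site.

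Per kb of gene, the 6 mRNAs together had 3.0 sites (15 in 4992 nt, 95% Poisson interval 1.68 to 4.96), against 4.88 in the 7 complex I mRNAs (31 in 6349 nt, 3.32 to 6.93). The ratio was 0.615 with an interval of 0.309 to 1.17, which includes 1, so the lower density was within counting error. Leaving out MT-ND6, the only mRNA encoded on the other strand, gave 0.565 (0.283 to 1.08). Sites covered 7.91% of the bases of these mRNAs and 13.1% of those of complex I mRNAs.

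Among the 6, the order by density was MT-CYB (4.38 per kb), MT-ATP6 (2.94), MT-CO2 (2.92), MT-CO1 (2.59), MT-CO3 (2.55) and MT-ATP8 (0). No neighbours in that order differed beyond their counting intervals. By complex the densities were 4.38 per kb for III, 2.66 for IV and 2.38 for V. The ratio of complex III to IV was 1.65 (0.424 to 5.72), that of III to V was 1.84 (0.302 to 19.4) and that of IV to V was 1.12 (0.223 to 10.8). The range among complex I mRNAs was wider, with 13.5 per kb in MT-ND4L and 11.6 in MT-ND3, and 0.960 in MT-ND2 and 0 in MT-ND6. The remaining sites of the mitochondrial chromosome, which carried 55 in all, were 3 in the rRNAs MT-RNR1 and MT-RNR2, 3 in the tRNA genes MT-TL1 and MT-TP, and 3 with no gene on their strand.

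**Figure D2:**
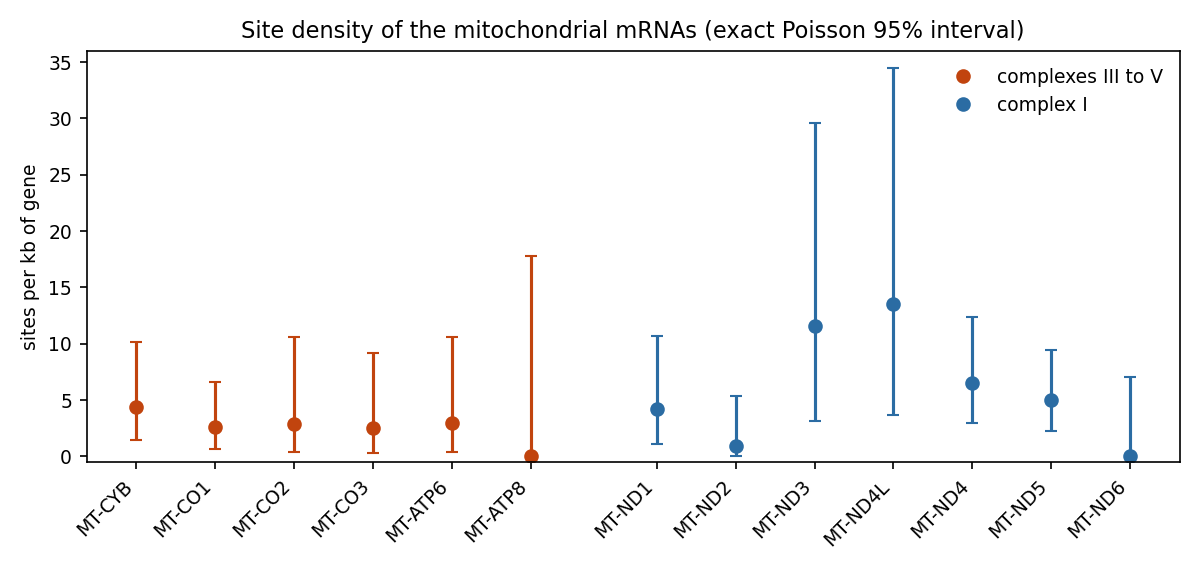
Sites per kb of gene (vertical axis) in each mitochondrial mRNA, complexes III to V in red and complex I in blue, with exact Poisson 95% intervals as bars. MT-CYB is the highest of the red points at 4.38 per kb, and the intervals of all 6 overlap.

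Where the sites fell followed a property of the sequence that the choice of genes did not use, whether the same letters stand elsewhere in the genome. Pieces of mitochondrial DNA have been copied into the nuclear chromosomes during evolution, and a large block of such copies on chromosome 1 covers most of these genes. Cutting the 6 mRNAs after every G gave 81 fragments of 17 nt or more, a length at which the authors kept reads. A fragment counted as holding a site when 50% or more of its bases lay in one, which 16 of 81 did (19.8%, Wilson interval 12.5 to 29.7%), against 30 of 103 in complex I mRNAs (29.1%, 21.2 to 38.5%). Among fragments with no exact copy elsewhere, 16 of 34 held a site (47.1%, 31.5 to 63.3%). Among fragments with an exact copy, 0 of 47 did (upper limit 7.56%), and no site touched any of the 47 even in part.

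The split ran the same way in each mRNA with a site, but only in MT-CO1 did the Wilson intervals of the shares not overlap. In MT-CO1, 4 of the 5 fragments without a copy held a site (80%, 37.6 to 96.4%), against 0 of 19 with one. In MT-CO2 it was 2 of 2 against 0 of 7, in MT-CO3 2 of 5 against 0 of 7, and in MT-ATP6 3 of 5 against 0 of 7, where the wide first site spanned 2 fragments. The 5 mRNAs other than MT-CYB together held sites on 11 of 19 fragments without a copy (57.9%, 36.3 to 76.9%), against 0 of 41 with one (upper limit 8.57%). MT-CYB, with few exact copies, had sites on 5 of 15 fragments without a copy (33.3%, 15.2 to 58.3%) and on 0 of 6 with one (upper limit 39.0%). Most of those 6 were 17 to 19 nt long, and no fragment with a site in these mRNAs was shorter than 20 nt. Length and copies were therefore not told apart in MT-CYB. Fragments of 17 to 19 nt with an exact copy also stood in each of the other 5 mRNAs. The 47 fragments with a copy thus include some shorter than any with a site, and others up to 48 nt long (in MT-CO2). Among the fragments without an exact copy, 9 of 20 with a copy at 1 mismatch held a site (45%), against 7 of 14 with no copy within 1 mismatch (50%). These counts came from different mRNAs, since all such fragments of MT-CO1, MT-CO2 and MT-ATP6 had a copy at 1 mismatch. In the mRNAs with fragments of both kinds, sites were on 0 of 5 with a copy at 1 mismatch against 5 of 10 without in MT-CYB, 0 of 2 against 2 of 3 in MT-CO3, and 0 of 1 against 0 of 1 in MT-ATP8.

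Complex I mRNAs had the same split with exceptions, 28 of 69 fragments without a copy (40.6%, 29.8 to 52.4%) against 2 of 34 with one (5.88%, 1.63 to 19.1%). Elsewhere in the list, sites with an exact copy were present, 167 of 1994 on the nuclear chromosomes (8.38%, 7.24 to 9.67%), beside 0 of the 15 sites here (upper limit 20.4%). How reads with several equal alignments were treated is not given in the sources used here, and its part in where sites were listed was not tested.

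**Figure D3:**
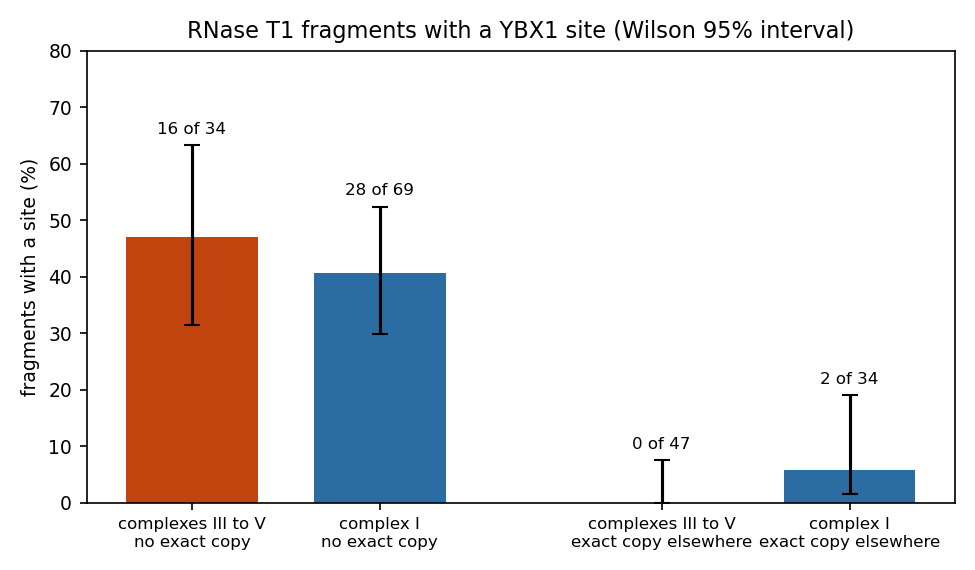
Share of RNase T1 fragments that hold a YBX1 site (vertical axis, percent) in the mRNAs of complexes III to V (red) and of complex I (blue), for fragments without (left) and with (right) an exact copy elsewhere in the genome, with Wilson 95% intervals as bars. The shares are 47.1% and 40.6% without a copy, and 0 of 47 and 2 of 34 with one.

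Counted over the sequence that is unique, MT-CO1 stood first and MT-CYB next to last among these mRNAs, while MT-ATP6, MT-CO2, MT-CO3 and MT-ATP8 kept their order. Of all 25-nt windows, 85.9% in MT-CYB occurred once in the genome, but 48.2% in MT-CO3, 41.7% in MT-CO2, 41.0% in MT-ATP8, 30.7% in MT-ATP6 and 21.6% in MT-CO1. Per 1000 such windows, MT-CO1 had 12.2 sites (3.32 to 31.2), MT-ATP6 9.90, MT-CO2 7.27, MT-CO3 5.46, MT-CYB 5.21 and MT-ATP8 0 (0 to 49.2). The ratio of MT-CYB to the other 5 mRNAs was 1.69 per length of gene (0.453 to 5.42) and 0.648 per unique window (0.174 to 2.08). Both intervals include 1, and the place of MT-CYB at the top depended on the measure. The 6 mRNAs together had 6.80 sites per 1000 unique windows (3.81 to 11.2), against 7.75 in complex I mRNAs (5.27 to 11), a ratio of 0.878 (0.440 to 1.68).

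None of the 15 site sequences occurred exactly anywhere else in the genome. For 8 of them no copy was found within 1 mismatch either, and 7 had such a copy, 6 of these in the block on chromosome 1 that holds the pseudogenes MTCO1P12, MTCO2P12 and MTATP6P1. Counting from 1 at the 5′ end of the site and giving the base of the site first, the differences were T10C, C3T and A15G for sites 1, 2 and 4 of MT-CO1, C9T and C23T for sites 1 and 2 of MT-CO2, and C22T for site 2 of MT-ATP6. The only pair of the 6 with T in the site and C in the copy is shown, with the differing base in capitals. These are the letters that PAR-CLIP changes.
MT-CO1 site 1, chrM:6212-6239: actcttaccTccctctctcctactcctg
MTCO1P12 copy, chr1:631382-631409: actcttaccCccctctctcctactcctg
A T-to-C change at this base of the mitochondrial RNA would give the letters of the chromosome 1 copy. The list held no site at any of the 6 copies on chromosome 1.

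GENCODE lists 187 pseudogenes of these 6 genes, and 1 site of the list lay in one of them, MTCO1P40 on chromosome 17. Its 20 nt occur at 2 places in the genome and differ from MT-CO1 nucleotides 1371 to 1390 at 1 base, C13T with the base of the chromosome 17 site first. The differing base is in capitals.
MTCO1P40 site, chr17:53106189-53106208: ctcattcatttcCctaacag
MT-CO1, chrM:7274-7293: ctcattcatttcTctaacag
At this base the mitochondrial letter is T and the nuclear one is C, as for MT-CO1 site 1. The differences C3T, C9T, C23T and C22T at the chromosome 1 copies run the other way. The MT-CO1 stretch is a complete RNase T1 fragment and no site was listed on it. Which of the RNAs gave the reads behind the chromosome 17 site was not tested.

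Against equally wide windows 100 nt up- and downstream within the mRNA, the sites were richer in pyrimidines. C and T together made up 70.2% of the bases of the 14 sites that had such a window and 57.2% of the windows, a difference of 12.9 ± 11.7 percentage points (SD over sites, which are not replicates), and 12 of 14 sites were above their windows. The largest differences were 31.5 points at MT-CYB site 3, 24 at MT-CYB site 1 and 22.7 at MT-CO3 site 1. The exceptions were MT-CYB site 4 (-3.57 points) and the A-rich MT-ATP6 site 1 (-11.8 points).

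Part of this gain is built into sites that run from one G to the next. G made up 4.24% of the sites and 14.9% of the windows and was lower in all 14 sites, and over A, C and T alone the gain in C and T was 6.28 points, within the spread over sites. C was 7.23 ± 10.5 points higher and T 5.69 ± 11.6 points higher, both within their spread over sites, and A was lower by less than its spread (-2.24 ± 10.9 points). With windows 300 nt away the gain in C was 1.12 points and that in C and T 8.66 points, both within the spread over sites, and with sites extended by 10 nt on each side T was lower in the sites (-1.16 points). In complex I mRNAs the sites held 64.2% C and T, against 60.1% in their windows (4.09 ± 12.4 points, higher in 16 of 29). On the nuclear chromosomes the sites held 60.9% and the windows 50.2% (10.7 ± 14.6 points over 1522 sites). A and C together, the pair that gained most at nuclear sites (13.2 ± 13.7 points), gained 4.98 ± 11.9 points here.

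**Figure D4:**
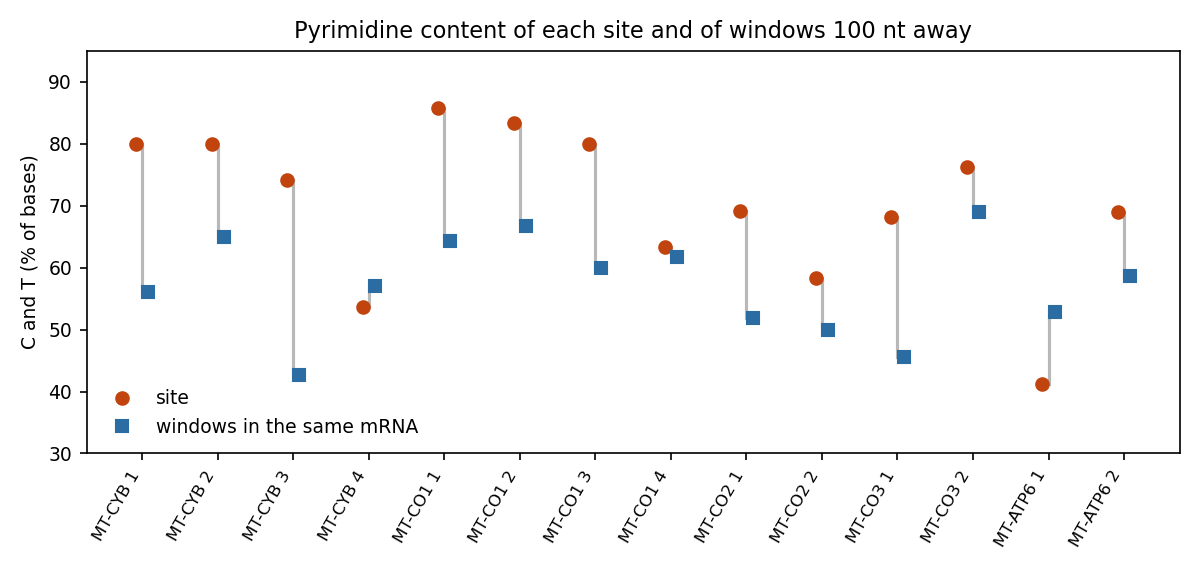
Percent of C and T (vertical axis) in each of the 14 sites with a comparison window (red circles) and in equally wide windows 100 nt up- and downstream within the mRNA (blue squares). The red circle is above its blue square in 12 of 14 sites, and the exceptions are MT-CYB site 4 and MT-ATP6 site 1.

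When only unique fragments were set side by side, those with a site and those without differed in composition by less than their spread. The 16 with a site had a mean of 68.4 ± 13.3% C and T and the 18 without had 65.4 ± 11.3% (SD over fragments). CATC stood in 7 of the 16 (43.8%) and in 7 of the 18 (38.9%). Fragments with a site ran from 20 to 37 nt with a median of 24.5 nt, those without from 17 to 93 nt with a median of 27.5 nt. The longest unique fragments all lay without a site, 93 nt in MT-ATP8 (chrM 8393 to 8485), 59 nt in MT-ATP6 and 51 nt in MT-CYB. The study's methods describe excising the crosslinked RNA within a narrow range of short sizes, which complete fragments of these lengths exceed. The longest fragment with a site, 37 nt in MT-CYB, exceeds that range when complete as well. The part of that size selection in which fragments held sites was not tested. The most pyrimidine-rich fragments without a site, both unique, are shown because their composition is near that of the richest sites above.
MT-CYB, no site, chrM:15439-15466: cttacttctcttccttctctccttaatg
MT-CO3, no site, chrM:9756-9774: tctcccttcaccatttccg
The first held 85.7% C and T, the share of the richest site, MT-CO1 site 1, and the other held 84.2%. The list gives no read depth, so whether reads covered these stretches could not be examined.

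CATC, searched on the sense strand only, stood in 7 of the 15 sites (46.7%, Wilson interval 24.8 to 69.9%), with 8 copies in all. It stood in 7 of 25 windows of the same mRNAs (28.0%), in 9 of 31 complex I sites (29.0%) and in 24.8% of 1994 nuclear sites, so the shares in windows and in complex I sites lay inside the interval around its share in these sites, and the nuclear share lay at its lower limit. ACTT stood in 5 of 15 sites (33.3%, 15.2 to 58.3%), in 0 of 25 windows (upper limit 13.3%), in 3 of 31 complex I sites (9.68%) and in 25.9% of nuclear sites. ACAT stood in 0 of the 15 sites (upper limit 20.4%), against 11 of 31 complex I sites (35.5%) and 25.3% of nuclear sites. AACA was in 2 of 15 (13.3%), against 13 of 31 complex I sites (41.9%). Tetramers overlap one another, 10 of the 11 had been picked from the sites of the same list, and a match of letters is a description only.

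Most copies of CATC in these mRNAs lay outside sites. MT-CYB held 16 copies, 5 of them inside sites, MT-CO1 15 with 2 inside, and MT-CO2 9 with 1 inside. MT-CO3 with 8, MT-ATP6 with 4 and MT-ATP8 with 1 had none inside a site. Ahead of the first site of MT-CYB lay 7 fragments of 17 nt or more, 3 of which held CATC.

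The nuclear genome encodes the other subunits of the same complexes, and their mRNAs are translated in the cytoplasm. Of 38 such genes, 6 held a site (15.8%, beside 6.81% of all protein-coding genes). The 6.81% covers every protein-coding gene, whether or not the cells express it, and the difference was not tested. For complex III it was 1 of 9, UQCRQ, a small subunit that binds ubiquinone. For complex IV it was 1 of 11, COX5A. For complex V it was 4 of 18 (22.2%), ATP5F1A and ATP5F1C, the alpha and gamma subunits of the catalytic head, ATP5PF of the stalk, and ATP5MC3, a source of the rotor ring subunit. The sites in these 6 genes held 50% to 66.7% C and T, all below the median of 74.1% of the mitochondrial sites. The mean over the 1522 nuclear sites with a window was 60.9%, which lies inside that range. The one in ATP5F1C, the highest of the 6, is shown with CATC in capitals.
ATP5F1C, exon, plus strand, chr10:7802335-7802358: gccaaCATCATCtactactctctg

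Of 25 nuclear genes for proteins that make, mature or translate mitochondrial RNA, 5 held a site (20%, beside 6.81% of all protein-coding genes). These were FASTK, FASTKD5, TFAM, GRSF1 and PTCD3. The list is short and was chosen with earlier results known, and the difference was not tested. TFAM packages and helps transcribe mitochondrial DNA, GRSF1 is an RNA-binding protein of the mitochondrial RNA granules, FASTKD5 is needed to mature mitochondrial mRNAs without flanking tRNAs, and PTCD3 is a protein of the mitochondrial ribosome. PTCD3 held 2 sites, 1 in an exon and 1 in the 3′UTR by the authors' annotation, and the other 4 genes held 1 each.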

How the data were processed

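YBX1 PAR-CLIP was measured in HEK293 cells in 2 replicates. As given in the methods, the authors used cutadapt 1.4.1 for trimming and the PARA-suite for alignment to GRCh38 and Ensembl transcripts, called stranded clusters with BMix on both replicates together and annotated them with HOMER. The deposited values are positions (start and end) with strand and annotation and hold no counts, so depth is unknown, replicate spread could not be measured and no test between conditions was made. The deposited gene column was empty for the mitochondrial sites.

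Starts were read as 1-based and the last base as 1 before the listed end, where the G left by RNase T1 lies. Genes came from GENCODE release 44. Exact Poisson and Wilson 95% intervals and conditional intervals of ratios were computed with SciPy 1.17.1 in Python 3.11.15, and figures were drawn with matplotlib 3.10.9. Fragments were taken between G bases at a minimum of 17 nt, with no maximum length. Copies were searched on both strands of the assembled chromosomes, exactly and with 1 mismatch. Windows lay 100 nt from a site, in the same gene, and touched no site. The scripts were tested on simulated data. Named genes were all members, the other mitochondrial genes with a site and the listed nuclear genes with a site. The members, gene lists and tetramers were chosen with earlier results of these data known.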

Additional observations from a re-analysis of the deposited data

How the results depend on the processing

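The number of sites in the 6 mRNAs was 15 with any overlap with the gene, with strand ignored and with sites that occur once in the genome, 13 with sites within 50 nt merged, and 10 with only sites wider than the median, which left 0 in MT-CO3 and 3 in MT-CYB. The density ratio to complex I mRNAs ran from 0.530 to 0.870 under these settings and without MT-ND6, and was 0.878 per unique window, a measure chosen after seeing the data. Every one of these values was under 1 and every interval included 1. The share of RNase T1 fragments with a site was 19.8% of all and 47.1% when only fragments with no exact copy elsewhere were counted, also chosen after seeing the data, because the 47 fragments left out all lacked a site. It was 28.6% with fragments of at least 20 nt and 21.0% with any overlap. The gain of T in sites over windows turned to -1.16 percentage points with sites extended by 10 nt on each side, against 5.69 as listed, and the cause was not tested. The gain of C and T kept its direction, from 4.43 to 13.4 points, but was beyond its spread over sites only as listed (12.9) and with the last base at the listed end (13.4). It was within that spread with windows 300 nt away (8.66), with sites extended (4.43) and over A, C and T alone (6.28). That spread is the SD over single sites and does not measure the error of the mean gain. The gain of C was 7.23 points as listed, 1.12 with windows 300 nt away and 3.85 over A, C and T alone. No paired analysis was possible because the 2 replicates were pooled into 1 list, and for the same reason neither replicate could be left out. With 15 sites, density differences below about the width of the intervals given were not detectable.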
